A study of Rattus norvegicus and Mus musculus with 12 samples.

Results

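Untreated chondrocytes of rat and of mouse were compared with each other by bulk RNA-seq, as they stood in culture before any inflammatory stimulus. The comparison took 6 of the 12 libraries of the series: 3 of the rat control group (RC) and 3 of the mouse control group (MC). The other 6, rat and mouse chondrocytes given 20 ng/ml IL-1β for 24 h (RM and MM), were not part of it. RC cells came from articular cartilage of newborn SD (Sprague–Dawley) rats, and MC cells from articular cartilage of newborn C57BL/6 mice. The strain labels of MC1, MC2 and MC3 read C57BL/6, C57BL/7 and C57BL/8, whereas the study's methods name C57BL/6 alone. Both groups were freed with collagenase, grown in the same serum-containing medium and used at the first passage, with no IL-1β and no genetic change. The series asked which of the 2 species gives the more suitable chondrocyte culture for work on osteoarthritis. Species, culture and gene annotation differ together between RC and MC, so that a difference between the groups cannot be told apart from any one of them.

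Chondrocytes are the only resident cells of articular cartilage. They build a matrix of type II collagen fibrils, stiffened by collagens IX and XI, that holds aggrecan, a very large proteoglycan that draws in water, and they depend on the transcription factor SOX9 for it. Grown on plastic, chondrocytes drift towards a fibroblast-like state in which type I collagen rises and type II collagen falls. The study used cells of the first passage to limit this drift. The joint surface borders on synovium, ligament, bone and fat, so that markers of those tissues were looked at as well.

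Counts covered 19687 genes in rat and 28603 in mouse. Of 14402 gene symbols found in both without regard to case, 13953 had a count in each species, and these shared genes took 95% of the counts in RC and 92.9% in MC. Total counts ran from 21114361 to 24897458 in RC and from 16841580 to 17957308 in MC. Levels are given as scaled FPKM, that is fragments per kilobase of gene relative to library size, rescaled so that the shared genes of a library sum to 1000000 and then divided by a TMM factor (a correction for a few genes taking a large share). Levels are therefore per length. The test was edgeR's quasi-likelihood test on the counts, with each gene's length in its own species taken into account, and fold changes are RC minus MC, so that a positive log2 value is higher in RC. SE is an approximate standard error of the log2 fold change, worked out as its size divided by the square root of the test's F statistic. A gene was called when its adjusted P was under 0.05, its log2 fold change was at least 1 in size and its FPKM reached 1 in a library. Ranks agreed more closely within a species (Spearman 0.991 to 0.994 in RC and 0.996 in MC) than between the species (0.843 to 0.849). The study's methods state 3 independent samples per group, but neither labels nor methods say which animals gave which library. P values measure only the spread between these samples, which was wider in RC than in MC (coefficient of variation 0.116 against 0.0323). Between pairs of libraries, a chi-square per degree of freedom, near 1 under counting error alone, was 12.5 to 29.5 in RC and 1.9 to 2.58 in MC. The MC libraries thus differed by little more than counting.

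Of 11970 shared genes tested, 2253 were called higher in RC (18.8%) and 2288 higher in MC (19.1%). An adjusted P under 0.05 was reached by 9967 genes (83.3%), and in 84.7% of the genes tested the 3 RC and the 3 MC levels did not overlap. With so many genes apart, the size of a difference carries more than its P value, and counts within a gene list are read against these shares. The median log2 fold change was -0.036. When libraries were scaled to the sum of the shared genes without the TMM factor, the median was -0.36 and the calls split into 1589 higher in RC and 3072 higher in MC, which is 34.1% higher in RC against 49.6% with the factor. All values here are on the scale with the factor. The other scaling moves all genes towards MC by about the same amount, so that small positive log2 fold changes turn negative under it. A second way of looking used the rank of each gene within its library, which needs no scaling. With an adjusted P under 0.05 as well (limma on the percentile ranks), 647 genes (5.41%) stood at least 25 percentile points higher in RC and 699 (5.84%) at least 25 points higher in MC.

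The gene models of the species are not alike, and this touches every value. The rat models of the shared genes were shorter, with a median of 2428 bases against 4357 in mouse and a median ratio of 0.623. With the length correction, log2 fold changes still went against the rat-to-mouse length ratio (Spearman -0.33, and 0.17 without the correction). Corrected levels are therefore not independent of length. Without the length correction, 1679 genes were called higher in RC and 2243 higher in MC. Genes called in the same direction with and without it numbered 1241 (10.4%) and 1669 (13.9%), and below they are said to be called on both scales. Reads that fall on exons of 2 genes at once are usually not counted for either. Among 167 genes of which 50% or more of the mouse exon bases are also exon of another gene in GENCODE M21, the median log2 fold change was 2.78, and 75.4% were called higher in RC. Among the 7584 genes with no such overlap the median was -0.17, with 15.1% called higher in RC and 21.7% higher in MC. The same check was not made for the rat genes. Genes named below as higher in RC with an overlap of 25% or more are given with that share.

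**Figure D1:**
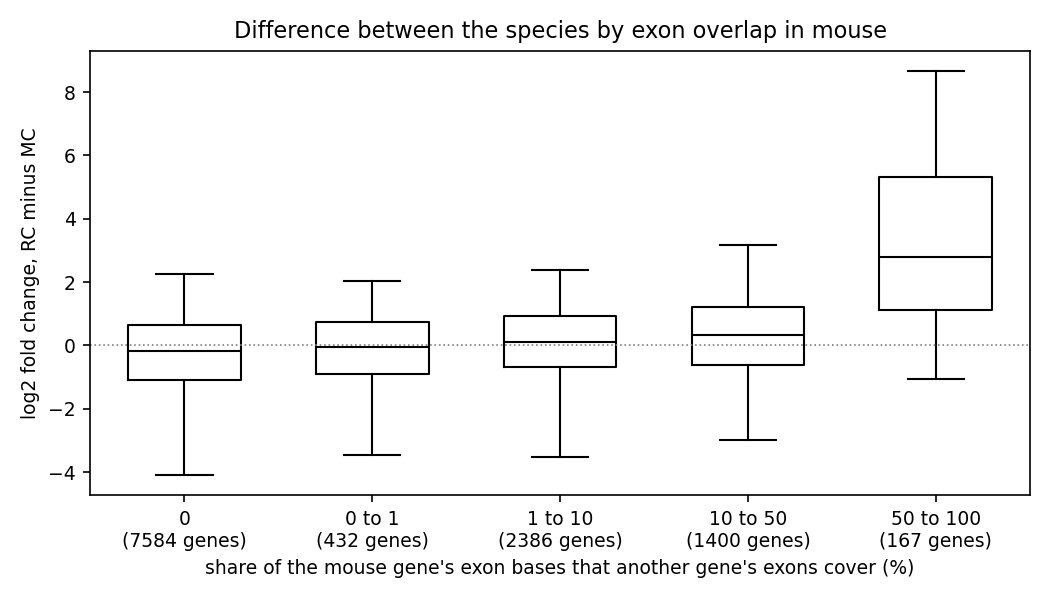
Log2 fold change (RC minus MC) of 11969 shared genes, grouped by the share of the mouse gene's exon bases that exons of another mouse gene cover (%). Boxes span the quartiles, the line is the median and whiskers run from the 5th to the 95th percentile. The median lies between -0.17 and 0.33 in the first 4 groups and reaches 2.78 in the 167 genes with an overlap of 50% or more.

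The chondrocyte markers were high in both species. Col2a1 (ENSRNOG00000058560 in rat and ENSMUSG00000022483 in mouse, chr15:97975602-98004695 in GRCm38), the gene of type II collagen, had levels of 6832, 8245 and 6992 in RC1 to RC3 and 5409, 5301 and 5454 in MC1 to MC3. It ranked above 99.9 percent of the shared genes in RC and 99.9 percent in MC, and its log2 fold change of 0.45 (SE 0.079, adjusted P = 0.000228) stayed under the threshold although the groups did not overlap. In a bulk sample, fewer cells of a type and less RNA per cell cannot be told apart.

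Acan (ENSRNOG00000028992 in rat and ENSMUSG00000030607 in mouse, chr7:79053483-79115099), the gene of aggrecan, stood at 1268, 1565 and 1280.0 in RC1 to RC3 and 309, 306 and 325 in MC1 to MC3. All RC libraries lay above all MC libraries, with a log2 fold change of 2.13 (SE 0.086, adjusted P = 6.13e-10) and of 2.83 without the length correction. Sox9 (ENSRNOG00000002607 in rat and ENSMUSG00000000567 in mouse, chr11:112782224-112787760), the transcription factor that switches on both genes, went the other way, with levels of 71.9, 73.7 and 73.1 in RC1 to RC3 and 169, 171 and 174 in MC1 to MC3. It was called higher in MC, at -1.23 (SE 0.059, adjusted P = 2.53e-09), but not without the length correction (-0.7). Among genes with lengths nearly alike in the species (a ratio of at most 5 to 4) Sox9 was not called either (-0.65). Comp (ENSRNOG00000048472 in rat and ENSMUSG00000031849 in mouse, chr8:70373558-70382066), cartilage oligomeric matrix protein, had levels of 665, 765 and 677 in RC1 to RC3 and 1194, 1179 and 1109 in MC1 to MC3, a log2 fold change of -0.72 (SE 0.069, adjusted P = 1.19e-06) that was not called and that was 0.0013 without the length correction. With scaling to the sum of the shared genes, Comp was called higher in MC (-1.05). So aggrecan alone of the 4 chondrocyte markers was called on both scales.

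Col1a1 (ENSRNOG00000003897 in rat and ENSMUSG00000001506 in mouse, chr11:94936224-94953042), the marker of dedifferentiated or fibroblast-like cells, was as abundant as type II collagen, within the same order of magnitude, in both species. Its levels were 5273, 6240.4 and 5313 in RC1 to RC3 and 7504, 7534 and 7613 in MC1 to MC3, a log2 fold change of -0.43 (SE 0.077, adjusted P = 0.000251), and 0.2 without the length correction. Col1a2, whose chain joins that of Col1a1 in type I collagen, was far apart, at 80.1, 99.2 and 93.9 in RC1 to RC3 and 3859.5, 3845 and 3853 in MC1 to MC3 (log2 fold change -5.4, SE 0.095, adjusted P = 1.31e-12). Every MC library was above 3800 and every RC library under 100. The rat gene model of Col1a2 is 0.36 times as long as the mouse model, and the log2 fold change was -6.07 without the length correction.

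**Figure D2:**
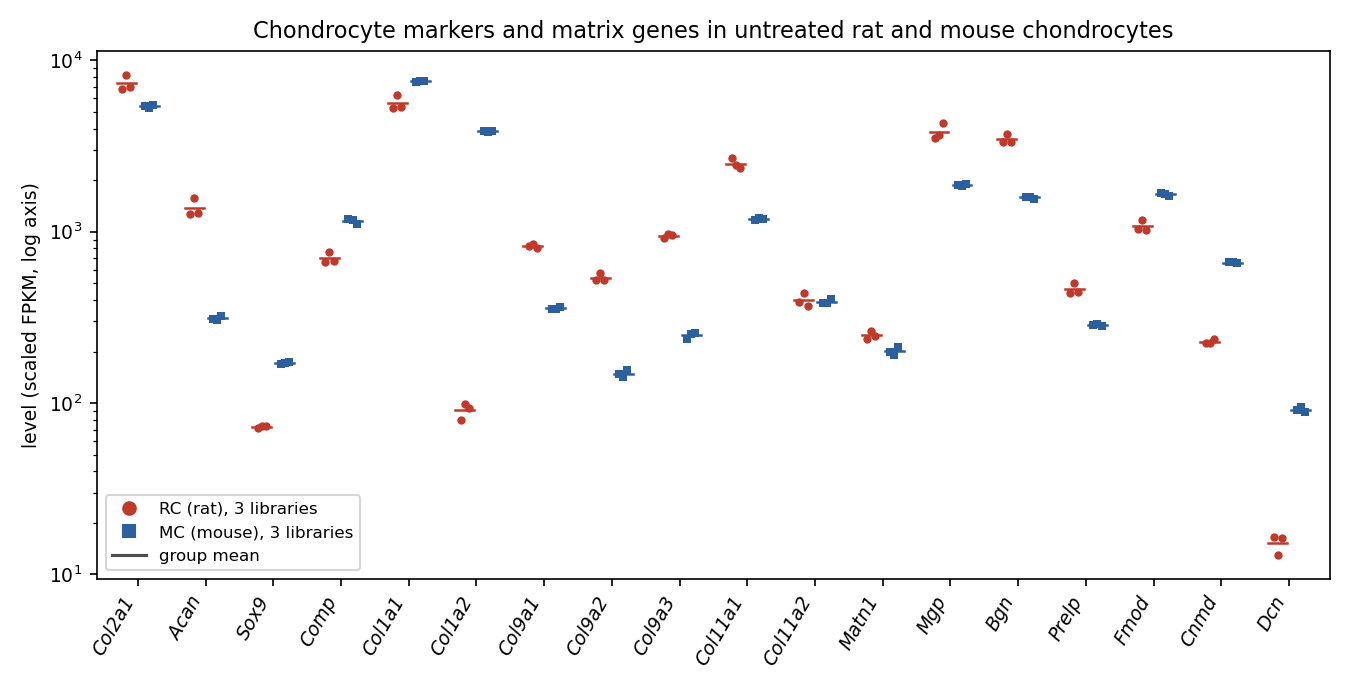
Level (scaled FPKM, log axis) of the 5 markers and of 13 other matrix genes in each library of RC (circles) and MC (squares), with a line at each group mean. Acan, the 3 Col9 genes and Mgp lie higher in RC, Col1a2, Cnmd and Dcn lie higher in MC, and Col2a1, Col1a1 and Col11a2 lie close together.

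Of 40 cartilage matrix genes tested, 18 were called higher in RC and 9 higher in MC, against 18.8% and 19.1% of all genes, and 16 and 5 were called on both scales. Their median log2 fold change was 0.64. When libraries were scaled to the sum of the shared genes, the counts were 11 and 10 of the 40, against 13.3% and 25.7% of all genes on that scale. The collagens that cover the type II fibril were higher in RC. Col9a1 had levels of 826, 844 and 800.4 in RC1 to RC3 and 355, 355 and 365 in MC1 to MC3 (log2 fold change 1.2, SE 0.057, adjusted P = 2.32e-09). Col9a2 and Col9a3 had log2 fold changes of 1.86 (adjusted P = 2.35e-10) and 1.93 (adjusted P = 7.41e-11). Col11a1, a core chain of the same fibril, stood at 2677, 2453 and 2368 in RC1 to RC3 and 1173, 1199 and 1187 in MC1 to MC3 (log2 fold change 1.07, SE 0.066, adjusted P = 2.23e-08). Its partner chain Col11a2 did not separate the species, with levels of 387, 439 and 371 in RC1 to RC3 and 386, 383 and 405 in MC1 to MC3 and overlapping groups (0.029, adjusted P = 0.709).

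Other genes higher in RC were those of matrix proteins that sit between the fibrils. Mgp, an inhibitor of calcification, had levels of 3512, 3675 and 4308 in RC1 to RC3 and 1870.2, 1842 and 1888 in MC1 to MC3 (log2 fold change 1.04, SE 0.077, adjusted P = 1.24e-07). Bgn, a small leucine-rich proteoglycan, had levels of 3348, 3727 and 3325 in RC1 to RC3 and 1599, 1598 and 1560.2 in MC1 to MC3, called at 1.13 (adjusted P = 1.28e-08) but not without the length correction (0.6). Of 3 genes named after their values were seen, Hapln1, the link protein that fastens aggrecan to hyaluronan, was at 344 ± 73.8 in RC and 165 ± 3.14 in MC (mean ± SD, n = 3 each), a log2 fold change of 1.06 (adjusted P = 5.99e-06), and Ucma, a secreted protein of the resting zone of cartilage, at 626 ± 53.1 and 260.5 ± 2.59 (1.26, adjusted P = 1.43e-08). Lum, lumican, reached 1.43 (adjusted P = 8.83e-08). The matrix genes higher in MC included Cnmd, chondromodulin, an inhibitor of vessel growth, with levels of 225, 223 and 236 in RC1 to RC3 and 664, 663 and 653 in MC1 to MC3 (log2 fold change -1.54, SE 0.059, adjusted P = 3.99e-10). Dcn, decorin, had levels of 16.6, 13.1 and 16.3 in RC1 to RC3 and 90.8, 94.8 and 89.2 in MC1 to MC3 (log2 fold change -2.58, SE 0.094, adjusted P = 2.58e-10). With scaling to the sum of the shared genes, Col9a1, Col11a1, Mgp, Bgn, Hapln1 and Ucma stayed higher in RC but fell under the threshold (log2 fold changes of 0.71 to 0.94). Leaving out 1 library did so for Hapln1 without RC1 (0.92) and for Mgp without RC3 (0.97). Matn1, Prelp and Fmod, also matrix genes, were not called, at 0.31, 0.7 and -0.62, and without the length correction Matn1 and Prelp were called higher in RC (1.03 and 1.51) and Fmod was 0.29. Prelp was also called among genes with lengths nearly alike in the species (1.28).

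Ogn, the gene of osteoglycin (mimecan), showed the largest excess in MC of all genes that met the rule for the 12 largest differences. Its levels were 0.767, 0.97 and 1.39 in RC1 to RC3 and 2203, 2175 and 2173 in MC1 to MC3, from 41 counts over the 3 RC libraries and 72713 over the 3 MC libraries (log2 fold change -11.04, SE 0.12, adjusted P = 1.52e-13). Aspn, asporin, had levels of 0.616, 0.439 and 0.321 in RC1 to RC3 and 350.3, 362 and 337 in MC1 to MC3 (log2 fold change -9.52, SE 0.13, adjusted P = 3.71e-13). Omd, osteomodulin, had levels of 0.683, 0.313 and 0.343 in RC1 to RC3 and 197, 205 and 213 in MC1 to MC3 (log2 fold change -8.79, SE 0.16, adjusted P = 1.31e-12). All 3 genes encode small leucine-rich proteoglycans, and each was close to 0 in every RC library and high in every MC library.

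Among the genes tested, these 3 lie next to each other on mouse chromosome 13 of GRCm38, on the + strand: Aspn at chr13:49544443-49567565, Omd at chr13:49582462-49592822 and Ogn at chr13:49608046-49624501. The nearest tested gene on either side, chosen for its position after its values were seen, was low in RC as well. Ecm2 (chr13:49504810-49532789) had levels of 0.69, 0.194 and 0.341 in RC1 to RC3 and 9.401, 10.7 and 9.22 in MC1 to MC3 (-4.54, adjusted P = 9.31e-09). Nol8 (chr13:49653078-49679016), a gene of ribosome production, had 0.384, 0.242 and 1.43 in RC1 to RC3 and 9.82, 9.36 and 9.48 in MC1 to MC3 (-3.84, adjusted P = 7.23e-07). The next genes outwards were present in both species. Ippk and Bicd2, on one side, had log2 fold changes of -0.57 and -0.65, and Iars, on the other, of -1.32. Without the length correction these were -0.55, 0.15 and -0.39, none of them called. The run of 5 neighbouring genes near 0 in RC thus ended on both sides at genes with many counts in RC, 923 for Ippk and 9547 for Iars. The order of these genes in the rat assembly used for the counts was not looked at, and whether the rat gene models of this stretch take up reads as the mouse models do was not tested.

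**Figure D3:**
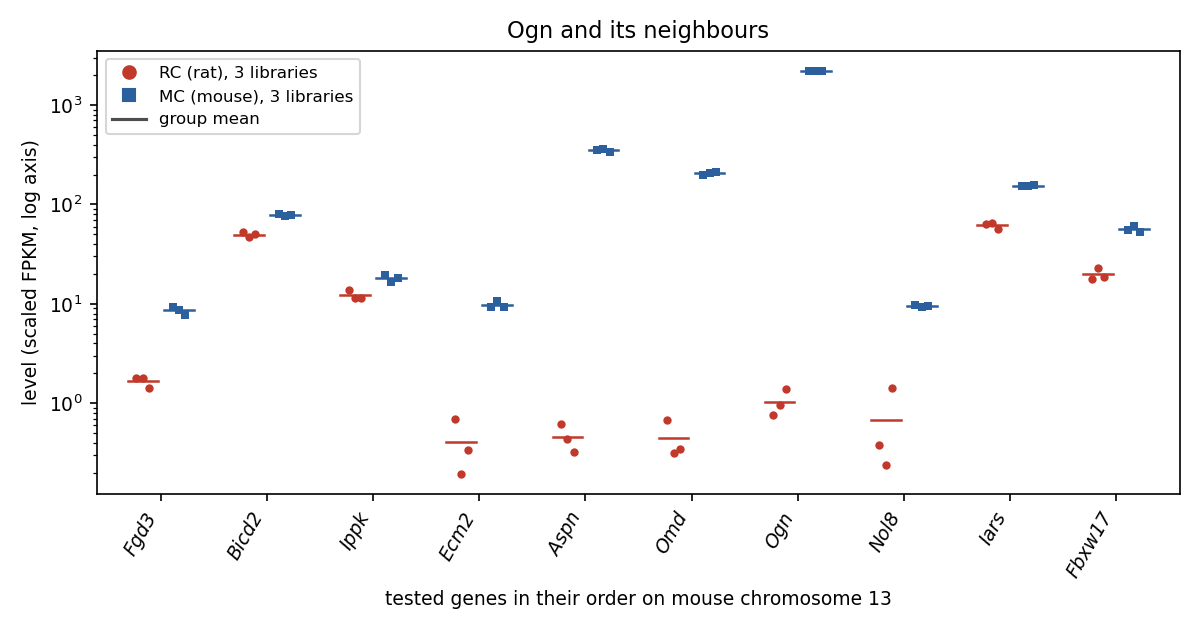
Level (scaled FPKM, log axis) of 10 neighbouring tested genes in their order on mouse chromosome 13, in each library of RC (circles) and MC (squares), with a line at each group mean. The 5 genes from Ecm2 to Nol8 have RC means of 0.408 to 1.04, and the genes on either side have RC means from 1.69 to 62.0.

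Of 29 transcription factors and receptors that set the chondrocyte state, 2 were called higher in RC and 5 higher in MC (1 and 4 on both scales), and the median log2 fold change was 0.04. The shares called were 6.9% and 17.2%, against 18.8% and 19.1% of all genes. The count higher in MC moved with the scale. It was 8 when libraries were scaled to the sum of the shared genes (25.7% of all genes), with a median of -0.29, and 11 without the length correction (18.7% of all genes), with a median of -0.28. Under each of these settings 2 were called higher in RC. Barx1, a homeobox gene of developing joints, had levels of 68.6, 80.98 and 78.5 in RC1 to RC3 and 358, 334 and 359 in MC1 to MC3 (log2 fold change -2.2, SE 0.08, adjusted P = 2.57e-10). Klf4 had levels of 86.6, 76.3 and 75.3 in RC1 to RC3 and 305, 284 and 318 in MC1 to MC3 (log2 fold change -1.93, SE 0.077, adjusted P = 5.2e-10). Erg, a transcription factor that marks articular rather than growth plate chondrocytes, was also called higher in MC (-1.69, adjusted P = 5.86e-08). In RC, Fgfr3, a receptor that restrains cartilage growth, was higher, at 166, 185 and 175 in RC1 to RC3 and 66.1, 63.7 and 63.6 in MC1 to MC3 (log2 fold change 1.44, SE 0.064, adjusted P = 1.35e-09). Hif1a, Wwp2 and Trps1 were not called, at 0.29, 0.33 and -0.28, and neither were Sox5 and Sox6, partners of SOX9 named after their values were seen, at 0.94 and -0.19. Without the length correction Sox6 and Trps1 were called higher in MC (-1.64 and -1.03), and Sox5 and Wwp2 turned negative without being called (-0.31 and -0.7).

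Genes of hypertrophic chondrocytes and osteoblasts, the cells that mineralize cartilage and bone, were mixed. Of 21 tested, 3 were called higher in RC and 9 higher in MC (3 and 6 on both scales), with a median of -1.05. The shares called were 14.3% and 42.9%, against 18.8% and 19.1% of all genes. Among the 8 with lengths nearly alike in the species, 2 were called higher in RC and 1 higher in MC, with a median of -0.6. Over all genes with such lengths, 493 and 515 of 3067 were called. Col10a1, type X collagen, the mark of hypertrophy, had levels of 1.48, 3.06 and 3.35 in RC1 to RC3 and 72.9, 74.7 and 73.9 in MC1 to MC3 (log2 fold change -4.83, SE 0.18, adjusted P = 3.49e-10). Ibsp, bone sialoprotein, had levels of 2.76, 2.03 and 3.11 in RC1 to RC3 and 31.6, 31.9 and 34.9 in MC1 to MC3 (log2 fold change -3.64, SE 0.15, adjusted P = 8.15e-10). Both were low in RC and clearly present in MC. Spp1, osteopontin, was higher in RC, with 5666, 5049 and 5524 in RC1 to RC3 and 1520.0, 1478 and 1502 in MC1 to MC3 (log2 fold change 1.85, SE 0.065, adjusted P = 1.9e-10), as was Enpp1, which makes the pyrophosphate that holds back mineral (1.57, adjusted P = 1.34e-09). Alpl, alkaline phosphatase, which removes pyrophosphate, had overlapping groups at 17.4, 20.2 and 18.5 in RC1 to RC3 and 17.9, 16.7 and 15.8 in MC1 to MC3 (0.16, adjusted P = 0.176). Sparc, osteonectin, was among the most abundant genes of both species and was not called (0.83).

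Fibroblast genes went both ways. Of 41 tested, 10 were called higher in RC and 17 higher in MC (8 and 12 on both scales), with a median of 0.07 (-0.26 when libraries were scaled to the sum of the shared genes). The shares called were 24.4% and 41.5%, against 18.8% and 19.1% of all genes. Thy1, a surface glycoprotein used to mark fibroblasts and mesenchymal cells, had levels of 1767, 1951 and 1926 in RC1 to RC3 and 48.2, 51.4 and 50.5 in MC1 to MC3 (log2 fold change 5.23, SE 0.076, adjusted P = 4.68e-13). Col6a2, a chain of pericellular type VI collagen, had levels of 2803, 3249 and 2919 in RC1 to RC3 and 615, 629 and 614 in MC1 to MC3 (log2 fold change 2.27, SE 0.071, adjusted P = 7.24e-11). Lox, the enzyme that cross-links collagen, was higher in MC, with 745, 616 and 647 in RC1 to RC3 and 3295, 3259.8 and 3483 in MC1 to MC3 (log2 fold change -2.32, SE 0.08, adjusted P = 1.63e-10), and so was Sfrp2, a secreted Wnt antagonist, with 15.5, 17.1 and 11.3 in RC1 to RC3 and 1152, 1195 and 1018 in MC1 to MC3 (log2 fold change -6.25, SE 0.14, adjusted P = 5.8e-12). Fn1 (fibronectin), Vim (vimentin) and Col3a1 were abundant in both and not called, at 0.54, 0.6 and 0.81. S100a4, often taken as a fibroblast marker, had levels of 4799, 4663 and 5657 in RC1 to RC3 and 0.401, 2.45 and 0.38 in MC1 to MC3 (12.18, adjusted P = 1.31e-12), but 51.7 percent of its mouse exon bases are exon of another gene.

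Contractile genes were split between members of one apparatus. Acta2, smooth muscle actin, had levels of 59.3, 79.5 and 75.03 in RC1 to RC3 and 697, 669 and 610.1 in MC1 to MC3 (log2 fold change -3.21, SE 0.11, adjusted P = 1.21e-10). Myl9, a myosin light chain, had levels of 26.7, 26.7 and 34.2 in RC1 to RC3 and 163, 156 and 133 in MC1 to MC3 (log2 fold change -2.37, SE 0.12, adjusted P = 4.32e-09). Both were higher in every MC library. Tpm2, a tropomyosin, was higher in RC, with 865, 862 and 893 in RC1 to RC3 and 287, 269 and 279 in MC1 to MC3 (log2 fold change 1.65, SE 0.059, adjusted P = 2.29e-10), and Smtn, smoothelin, also called higher in RC, had a log2 fold change of 1.65 (adjusted P = 1.2e-09). Tagln, an actin-binding protein, had levels of 354, 409 and 447 in RC1 to RC3 and 2.35, 1.92 and 0.558 in MC1 to MC3 (7.97, adjusted P = 2.04e-11), with a mouse exon overlap of 67.9 percent. In all, 5 of 16 were called higher in RC (31.25%) and 4 higher in MC (25%), with the same counts on both scales. Over all genes the shares were 18.8% and 19.1%. Of the tendon genes, 6 of 9 were called higher in MC (66.7%) and 0 in RC, against the same shares of all genes. Tnmd, tenomodulin, had levels of 0, 0.251 and 0.55 in RC1 to RC3 and 37.9, 30.5 and 38.2 in MC1 to MC3 (log2 fold change -7.06, SE 0.34, adjusted P = 2.5e-09). Thbs4, a thrombospondin of tendon, had levels of 5.57, 5.51 and 5.74 in RC1 to RC3 and 60.7, 57.1 and 58.8 in MC1 to MC3 (log2 fold change -3.39, SE 0.089, adjusted P = 1.81e-11), while Scx, the tendon transcription factor, was not called (-0.7) but passed the threshold with scaling to the sum of the shared genes (-1.03).

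Markers of blood-borne and vessel cells were low in both groups. Of 22 macrophage and leukocyte markers found in both tables, 13 did not pass the filter on low counts, among them Ptprc (CD45, carried by all leukocytes), Adgre1, C1qa and Cd163. Ptprc had 20 counts over the 3 RC libraries and 3 over the 3 MC libraries. Over the 9 tested, the summed level ran from 63.1 to 74.3 in RC and from 32.1 to 35.9 in MC. Cd14 (2.09, adjusted P = 1.63e-07) and Laptm5 (4.29, adjusted P = 4.7e-09) were called higher in RC (22.2%), and 0 higher in MC. For this list and the short lists that follow, the shares over all genes were 18.8% and 19.1%, and so few members leave a share uncertain. Of 14 endothelial markers in both tables, Cdh5, Kdr and Tie1 failed the filter. Here 1 of 9 tested was called higher in RC (11.1%) and 3 higher in MC (33.3%), with summed levels of 54.3 to 64.6 and of 132 to 141. Most of the MC sum was Eng, at 88.8, 86.4 and 81.4, a receptor that mesenchymal cells also carry. Of 20 skeletal muscle markers 6 were tested, and Acta1 alone was called, higher in MC (16.7%). Of 3 Y-linked genes tested, Eif2s3y was found in all 6 libraries and not called, Kdm5d was called higher in RC and Ddx3y higher in MC (33.3% each). Among Schwann and neural markers, Sox10 failed the filter, and the summed level of 930 to 1003 in RC against 222 to 224 in MC was almost all S100b, which chondrocytes also make, at 920.4, 943 and 993 in RC1 to RC3 and 177, 178 and 184 in MC1 to MC3 (2.4, adjusted P = 1.84e-11). By count, 2 of the 9 tested were called higher in RC (22.2%) and 3 higher in MC (33.3%), with a median of -0.73. Nes and Ngfr were called higher in MC on both scales (-5.72 and -4.74). The part of such cells in the other results was not tested.

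Fat cell genes had the lowest median of the lists. Of 9 tested, 8 were called higher in MC on both scales and 0 in RC, against 19.1% of all genes, and the median log2 fold change was -3.83. Cebpa, a transcription factor of fat cell formation, had levels of 4.61, 5.097 and 5.58 in RC1 to RC3 and 86.5, 81.95 and 80.5 in MC1 to MC3 (log2 fold change -4.03, SE 0.1, adjusted P = 1.27e-11). Plin4, a coat protein of lipid droplets, had 4.71, 5.497 and 5.76 in RC1 to RC3 and 74.2, 76.1 and 76.7 in MC1 to MC3 (log2 fold change -3.83, SE 0.091, adjusted P = 8.74e-12). Lpl, lipoprotein lipase, had levels of 8.24, 5.54 and 5.73 in RC1 to RC3 and 62.9, 68.3 and 63.3 in MC1 to MC3 (log2 fold change -3.31, SE 0.13, adjusted P = 4.09e-10). All RC libraries were under 10 for these 3 genes and all MC libraries above 60. Cfd, adipsin, a secreted protease of fat cells, was nearly absent from RC, with 0.104, 0.112 and 0.489 in RC1 to RC3 and 48.5, 47.3 and 37.3 in MC1 to MC3 (log2 fold change -7.5, SE 0.31, adjusted P = 6.58e-10). Adipoq and Pparg, a hormone and the master transcription factor of fat cells, were named after their values were seen because they define the cell type. Adipoq had levels of 0.409, 0.164 and 0.24 in RC1 to RC3 and 18.98, 23.1 and 20.4 in MC1 to MC3 (-6.19, adjusted P = 6.5e-10). Pparg had levels of 5.596, 4.53 and 4.37 in RC1 to RC3 and 19.3, 20 and 17.4 in MC1 to MC3 (-1.96, adjusted P = 5.47e-08). Retn, resistin, stayed under an FPKM of 1 and was not called (-3.24). The summed level of the 9 ran from 32.4 to 38.8 in RC and from 326 to 349 in MC, against 5388 for the mean of Col2a1 in MC.

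Hox genes record the position along body and limb at which a cell arose, and cultured cells keep much of that record. Of 21 tested, 12 were called higher in MC and 1 higher in RC, with the same counts on both scales and a median of -1.54. The shares called were 57.1% and 4.8%, against 19.1% and 18.8% of all genes. Among the 7 with lengths nearly alike in the species, 1 was called higher in MC and 0 higher in RC, with a median of -0.041. Over all genes with such lengths, 515 and 493 of 3067 were called. The HoxA and HoxC genes made up most of those called higher in MC. Hoxa11 had levels of 1.77, 2.96 and 1.69 in RC1 to RC3 and 74.4, 80.2 and 73.6 in MC1 to MC3 (log2 fold change -5.14, SE 0.16, adjusted P = 7.28e-11). Hoxa9 had 2.69, 1.09 and 1.2 in RC1 to RC3 and 51.1, 54.4 and 53.6 in MC1 to MC3 (log2 fold change -4.96, SE 0.19, adjusted P = 3.38e-10). Hoxa7 had levels of 0.756, 2.104 and 1.24 in RC1 to RC3 and 18.96, 20.04 and 20.8 in MC1 to MC3 (log2 fold change -3.86, SE 0.24, adjusted P = 1.96e-08). In each the RC libraries lay below all MC libraries. Hoxc13 had 0 counts over the 3 RC libraries and 255 over the 3 MC libraries, so that it was at least 70.2-fold higher in MC (against a limit of 3 counts over the RC group). Within the HoxC cluster the difference changed from gene to gene. Hoxc10 had levels of 48.7, 55.2 and 51.3 in RC1 to RC3 and 81.7, 80.2 and 77.2 in MC1 to MC3 and was not called (-0.62, and 0.099 without the length correction), whereas its neighbours Hoxc9 and Hoxc11 were called at -1.29 and -2.45.

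Of the HoxD genes, Hoxd9, Hoxd10 and Hoxd11 were nearly level with the length correction. Hoxd8 was called higher in MC on both scales (-1.1, adjusted P = 1.59e-05). Hoxd13 failed the filter on low counts, with 1 count in RC and 40 in MC. Hoxd9 had overlapping groups at 31.4, 39.4 and 33.6 in RC1 to RC3 and 40.98, 41.03 and 35.4 in MC1 to MC3 (-0.17, adjusted P = 0.17), Hoxd10 was at 16.2, 12.4 and 16.9 in RC1 to RC3 and 18.6, 19.5 and 16.98 in MC1 to MC3 (-0.27, adjusted P = 0.0864), and Hoxd11 had a log2 fold change of 0.00098. Without the length correction these were 0.39, 0.83 and -1.29, the last called higher in MC. Hoxa4 was the 1 Hox gene called higher in RC, with 6.203, 8.199 and 7.701 in RC1 to RC3 and 2.203, 3.74 and 0.974 in MC1 to MC3 (1.68, adjusted P = 0.000703), and 16 percent of its mouse exon bases overlap another gene. In all, 24 Hox genes had a count in both tables, and most HoxB genes were not compared.

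Other genes of limb and regional identity also leaned to MC, with 3 of 37 called higher in RC and 16 higher in MC (2 and 15 on both scales) and a median of -1.33. The shares called were 8.1% and 43.2%, against 18.8% and 19.1% of all genes. Tbx4 and Tbx5, which are known for hindlimb and forelimb respectively, were found in every library of both groups. Tbx4 had levels of 22.8, 21.9 and 21.8 in RC1 to RC3 and 96.9, 92.02 and 102 in MC1 to MC3 (log2 fold change -2.13, SE 0.076, adjusted P = 2.03e-10). Tbx5 had levels of 11.2, 11.5 and 10.3 in RC1 to RC3 and 32.2, 35.8 and 31.04 in MC1 to MC3 (log2 fold change -1.58, SE 0.093, adjusted P = 1.47e-08). Pitx1, which acts above Tbx4 in the hindlimb, had levels of 197, 233 and 225 in RC1 to RC3 and 473, 476 and 476 in MC1 to MC3, called at -1.12 (adjusted P = 2.88e-08) but not without the length correction (-0.55). Among genes with lengths nearly alike Pitx1 was not called either (-0.54). Tbx15, which shapes the skeleton of limb and shoulder, was at 42.3, 34.95 and 35.5 in RC1 to RC3 and 272, 268 and 283 in MC1 to MC3 (log2 fold change -2.87, SE 0.084, adjusted P = 4.2e-11). Gli3, the hedgehog effector that patterns the limb, was higher in RC, at 76.7, 84.7 and 75.8 in RC1 to RC3 and 34.4, 35.5 and 36.6 in MC1 to MC3 (log2 fold change 1.16, SE 0.069, adjusted P = 1.59e-08), but fell under the threshold with scaling to the sum of the shared genes (0.83). Shox2, also a limb gene, had overlapping groups (0.19, and -0.098 without the length correction).

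**Figure D4:**
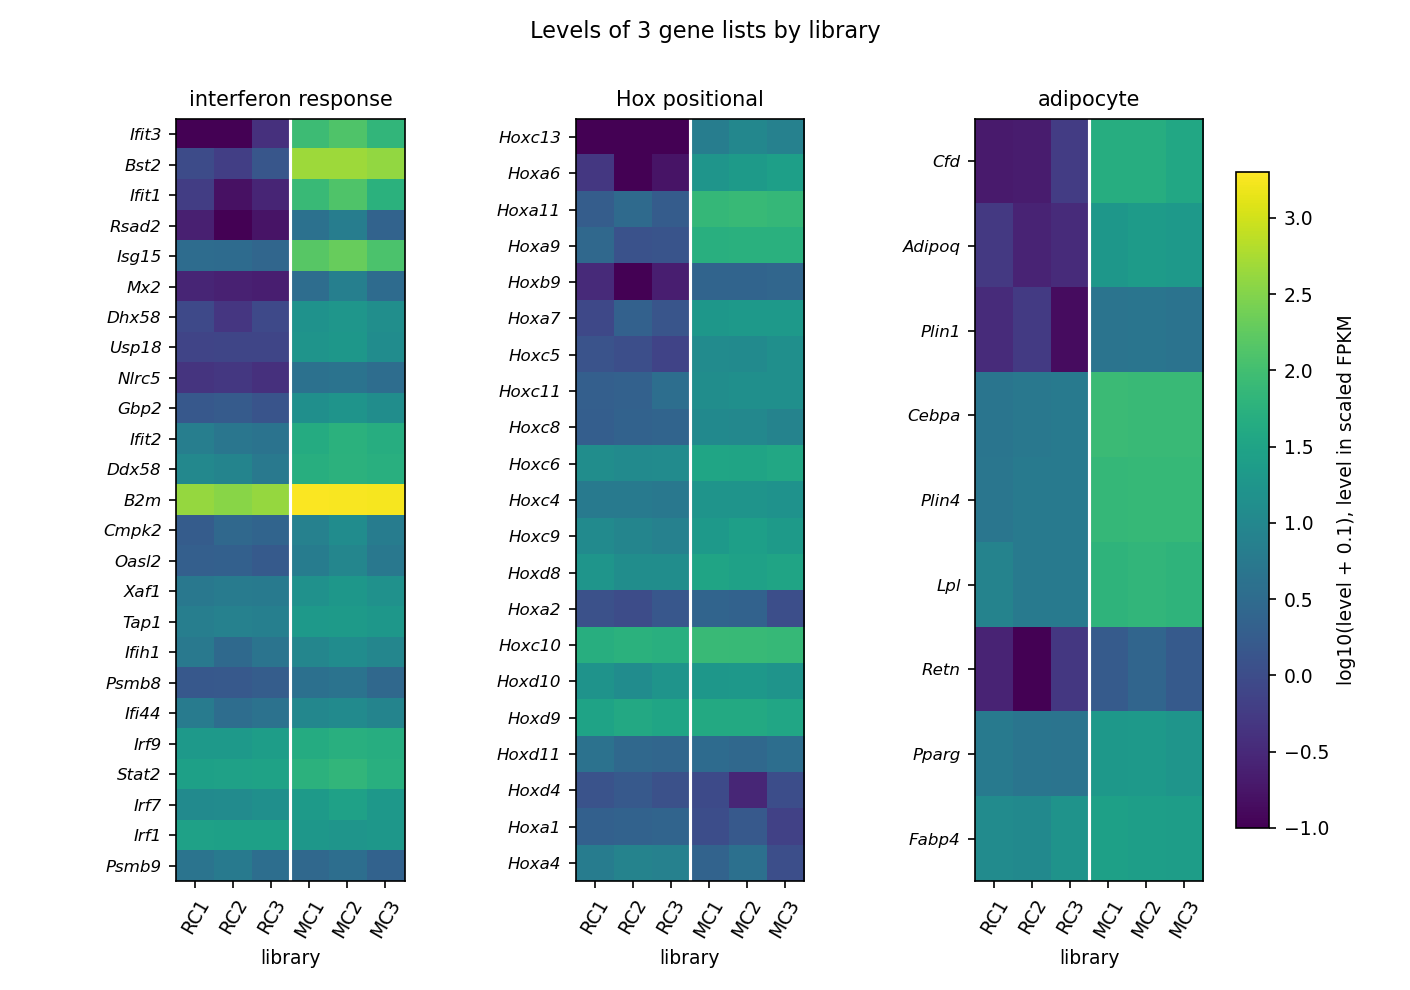
Log10 of level (scaled FPKM + 0.1) in each library for tested genes (1 interferon gene is not shown) of the interferon response, Hox positional and adipocyte lists, with a white line between RC and MC and genes ordered within each panel from highest in MC to highest in RC. Most genes are darker (lower) in RC, and Hoxa4 (log2 fold change 1.68), at the foot of the second panel, was called higher in RC.

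Genes that interferon switches on were lower in RC although no interferon was given to either species. The products of this group sense viral RNA, block viral growth and present antigen. Interferon receptors signal through transcription factors that include STAT2 and IRF9 and that bind an element in the promoters of these genes. Of 26 tested, 22 were called higher in MC (19 on both scales) and 1 higher in RC, against 19.1% and 18.8% of all genes, with a median of -2.08. The sequence element is built from repeats of GAAA, and the motif GAAANNGAAA was searched on both strands of the 250 bases before each start site in RefSeq rat promoters of the GRCr8 build. It was found in 12 of the 20 interferon genes with a promoter in the table (60%). Of these 20, Mx1, Oasl and Ifi44l were not among the genes tested. The motif was found in 3.41% of all 33469 promoters and in 2.45% of those of the shared genes tested. Among genes called, the share was 3.34% for those higher in MC and 1.83% for those higher in RC. It was found in 3 of 27 proteasome subunit genes (11.1%), in 0 of 10 adipocyte genes and in 0 of 28 cartilage matrix genes. Rat promoters are shown because the genes were low in rat. A match describes the letters only. The stretches of 4 interferon genes called higher in MC are printed along the gene, from 160 bases to 1 base before the start site, with the motif in capitals. In Ifit3 (chr1:241527166-241527325, + strand), Rsad2 (chr6:48788121-48788280, - strand) and Gbp2 (chr2:234005567-234005726, + strand) it reads TTTCNNTTTC, its form on the other strand, and in Bst2 (chr16:18254968-18255127, - strand) 2 copies overlap.
Ifit3: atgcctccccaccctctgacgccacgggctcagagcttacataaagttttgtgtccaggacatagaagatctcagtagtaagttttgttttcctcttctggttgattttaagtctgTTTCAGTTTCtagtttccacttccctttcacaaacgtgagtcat
Bst2: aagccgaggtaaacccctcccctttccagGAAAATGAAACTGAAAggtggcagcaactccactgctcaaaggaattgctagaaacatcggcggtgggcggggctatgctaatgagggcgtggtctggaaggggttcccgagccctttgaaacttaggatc
Rsad2: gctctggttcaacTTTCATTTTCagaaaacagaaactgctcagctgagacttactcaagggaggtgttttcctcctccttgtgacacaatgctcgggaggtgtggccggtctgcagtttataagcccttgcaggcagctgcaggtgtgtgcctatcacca
Gbp2: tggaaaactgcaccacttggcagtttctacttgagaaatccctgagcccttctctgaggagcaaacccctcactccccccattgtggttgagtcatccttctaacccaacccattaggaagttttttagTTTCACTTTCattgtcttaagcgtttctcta

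Ifit3, which binds viral RNA caps together with its relatives, had levels of 0, 0 and 0.299 in RC1 to RC3 and 86.9, 131 and 66.8 in MC1 to MC3 (log2 fold change -9.87, SE 0.47, adjusted P = 2.25e-09). Its neighbour Ifit1 had 0.505, 0.054 and 0.177 in RC1 to RC3 and 81.96, 128 and 54.97 in MC1 to MC3 (log2 fold change -8.4, SE 0.46, adjusted P = 7.52e-09). Both were close to 0 in RC. In MC they were also uneven, with MC2 highest and MC3 lowest for each. Bst2, tetherin, which holds budding virus at the cell surface, had levels of 0.873, 0.534 and 1.32 in RC1 to RC3 and 464, 471 and 400.0 in MC1 to MC3 (log2 fold change -8.92, SE 0.17, adjusted P = 1.97e-12). Isg15, a ubiquitin-like modifier, was present in RC, but low, at 3.26, 3.14 and 2.51 in RC1 to RC3 and 153, 203 and 123 in MC1 to MC3 (log2 fold change -5.73, SE 0.21, adjusted P = 2.85e-10). Rsad2, viperin, named after its values were seen, had levels of 0.142, 0 and 0.0668 in RC1 to RC3 and 3.996, 6.43 and 2.201 in MC1 to MC3 (log2 fold change -5.78, SE 0.6, adjusted P = 2.31e-06). Gbp2, a guanylate-binding protein, had 1.43, 1.62 and 1.23 in RC1 to RC3 and 13.7, 16.7 and 12.9 in MC1 to MC3 (log2 fold change -3.32, SE 0.18, adjusted P = 6.09e-09). In all 4 genes whose promoters are printed above the groups did not overlap. The same held for all 26 interferon genes tested and for 84.7% of all genes tested.

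B2m, the light chain of class I antigen-presenting molecules, had levels of 418, 340.1 and 411 in RC1 to RC3 and 1858, 1825 and 1761 in MC1 to MC3 (log2 fold change -2.22, SE 0.083, adjusted P = 3.1e-10), but -0.33 without the length correction. Stat2 and Irf9, named after their values were seen, were called higher in MC at -1.02 (adjusted P = 8.27e-07) and -1.12 (adjusted P = 3.5e-07), and Stat2 fell under the threshold without RC1 (-0.96) and without MC2 (-0.91), and was -0.77 without the length correction. Irf1 and Irf7 were not called, at 0.62 (adjusted P = 4.21e-05) and -0.93 (adjusted P = 0.000111), and Irf7 passed the threshold without MC3 (-1.05), without the length correction (-1.06) and with scaling to the sum of the shared genes (-1.25). Irf7 is one of the 12 genes whose promoter holds the motif, as are B2m, Bst2, Gbp2, Ifi44, Ifi44l, Ifih1, Ifit3, Oasl2, Rsad2, Tap1 and Xaf1.

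The receptor for IL-1β, the agent given to the other groups of the series, was close in level between the untreated cells of the species. IL-1 binds the receptor Il1r1 and its partner Il1rap, and the signal passes through Myd88 and the IRAK kinases to NF-κB. Il1r1 had levels of 44.2, 41.8 and 34.2 in RC1 to RC3 and 47.9, 48.7 and 46.4 in MC1 to MC3 (log2 fold change -0.25, SE 0.093, adjusted P = 0.0259). Il1rap had overlapping groups at 11.8, 8.58 and 8.94 in RC1 to RC3 and 8.41, 8.596 and 8.91 in MC1 to MC3 (0.18, adjusted P = 0.193). Myd88, the adaptor, had levels of 32.3, 37.6 and 37.3 in RC1 to RC3 and 44.7, 40.96 and 44.3 in MC1 to MC3 (-0.28, adjusted P = 0.0133). Il1rap and Myd88 changed sign without the length correction (-0.76 and 0.46). Irak4, Traf6, Rela and Tab2 were not called either (0.021, -0.47, -0.5 and 0.037), and without the length correction Rela was 0.15 and Traf6 was called higher in MC (-1.21). Of 31 genes of the pathway tested, 6 were called higher in RC and 7 higher in MC, which is 19.4% and 22.6% against 18.8% and 19.1% of all genes.

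Some regulators of the pathway were far apart. Il1rn, the receptor antagonist that keeps IL-1 from its receptor, had levels of 0.102, 0.438 and 0.24 in RC1 to RC3 and 112, 116 and 115 in MC1 to MC3 (log2 fold change -8.76, SE 0.17, adjusted P = 2.13e-12). It was close to 0 in each RC library and above 100 in each MC library. Il1rl1, the receptor for IL-33, went the other way, with 522, 438 and 518 in RC1 to RC3 and 13.5, 13.6 and 14.1 in MC1 to MC3 (log2 fold change 5.17, SE 0.091, adjusted P = 1.31e-12). Map3k7, the kinase TAK1 that passes the signal on, had levels of 8.32, 0.72 and 0.584 in RC1 to RC3 and 66.3, 64.6 and 63.97 in MC1 to MC3 (-4.29, adjusted P = 3.08e-05), where RC1 stood far above RC2 and RC3, and -6.59 without RC1. Relb, an NF-κB subunit, and Nfkbiz, a co-factor that NF-κB induces, were higher in MC (-2.17, adjusted P = 2.06e-08, and -2.65, adjusted P = 3.67e-09). Il1r2, the decoy receptor, failed the filter, with 4 counts in RC and 10 in MC. Nfkbia, the inhibitor IκBα, was called at -1.07 (adjusted P = 6.91e-07) but was -0.997 without RC3 and -0.3 without the length correction, and Irak1 and Irak3 were called higher in RC (1.01, adjusted P = 2.37e-08, and 1.17, adjusted P = 2.92e-07), the former not without RC2 (0.99) or MC1 (0.98). Scaled to the sum of the shared genes, neither was called (0.68 for Irak1 and 0.85 for Irak3). Among genes with lengths nearly alike in the species, Nfkbia was not called (-0.48).

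Of 18 cytokine and chemokine genes tested, 5 were called higher in RC and 8 higher in MC. The shares called were 27.8% and 44.4%, against 18.8% and 19.1% of all genes. Il6, Il1b and Cxcl2, strongly inducible genes, did not pass the filter on low counts in these untreated cells. Cxcl12, a chemokine that stromal cells make at rest, had levels of 1.501, 1.4 and 1.47 in RC1 to RC3 and 255, 243 and 251 in MC1 to MC3 (log2 fold change -7.42, SE 0.083, adjusted P = 1.52e-13), the widest gap of the list. Csf1, a growth factor for macrophages and osteoclasts, was at 196, 203 and 190.3 in RC1 to RC3 and 625, 618 and 602 in MC1 to MC3 (log2 fold change -1.65, SE 0.059, adjusted P = 2.13e-10). Il18 had levels of 0.311, 0.222 and 0.243 in RC1 to RC3 and 12.7, 15.5 and 13.1 in MC1 to MC3 (log2 fold change -5.63, SE 0.32, adjusted P = 1.01e-08). Cxcl1, Cxcl16 and Ccl2, chemokines for neutrophils, lymphocytes and monocytes, were low but higher in RC. Cxcl1 had levels of 19.5, 21.5 and 26.03 in RC1 to RC3 and 4.37, 3.43 and 3.55 in MC1 to MC3 (log2 fold change 2.55, SE 0.18, adjusted P = 7.77e-08). Cxcl16 was called at 2.74 (adjusted P = 2.01e-06) and Ccl2 at 1.86 (adjusted P = 1.83e-06). Ptgs2, cyclooxygenase-2, was also higher in RC, with 23.9, 15.5 and 16.6 in RC1 to RC3 and 5.32, 7.12 and 5.86 in MC1 to MC3 (log2 fold change 1.62, SE 0.18, adjusted P = 4.12e-06), while Ptges, which completes the synthesis of prostaglandin E2, was higher in MC, with 10.8, 16.1 and 13.4 in RC1 to RC3 and 37.5, 35.9 and 36.3 in MC1 to MC3 (log2 fold change -1.45, SE 0.13, adjusted P = 6.11e-07). Cxcl1 has close relatives among which reads can be split.

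Proteases that break down matrix, and their inhibitors, were found on both sides. Of 43 tested, 11 were called higher in RC and 8 higher in MC (9 and 7 on both scales), with a median of 0.29 (-0.03 when libraries were scaled to the sum of the shared genes). The shares called, 25.6% and 18.6%, were near the 18.8% and 19.1% of all genes. Mmp13, the main collagenase of cartilage, had levels of 93.6, 71.5 and 80.2 in RC1 to RC3 and 113, 114 and 113 in MC1 to MC3 and was not called (log2 fold change -0.47, SE 0.092, adjusted P = 0.000526, and 0.3 without the length correction). Mmp3, stromelysin, was low but higher in RC, with 32.9, 34.7 and 36.2 in RC1 to RC3 and 5.07, 3.31 and 3.08 in MC1 to MC3 (log2 fold change 3.18, SE 0.16, adjusted P = 4.5e-09). Mmp2 and Mmp14 were not called (-0.73 and 0.29), although Mmp2 passed the threshold with that scaling (-1.05) and Mmp14 was -0.19 without the length correction. Adamts5, an aggrecanase, was higher in MC, with 31.3, 29.8 and 26.7 in RC1 to RC3 and 121, 119 and 113 in MC1 to MC3 (log2 fold change -2.01, SE 0.074, adjusted P = 2.73e-10), and so was Adamts1 (-1.86, adjusted P = 3.36e-10).

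The lysosomal cathepsins differed by member. Ctsl had levels of 2221, 2041 and 2267 in RC1 to RC3 and 319, 309 and 313 in MC1 to MC3 (log2 fold change 2.79, SE 0.066, adjusted P = 8.13e-12). Ctsb had levels of 1616, 1779.5 and 1631 in RC1 to RC3 and 544, 539 and 529 in MC1 to MC3 (log2 fold change 1.64, SE 0.062, adjusted P = 3.53e-10). Both were higher in every RC library, with 26.8 and 12.8 percent of their mouse exon bases overlapped, and Ctsb was not called without the length correction (0.81). Ctsk, a cathepsin that cleaves fibrillar collagen, was higher in MC, with 65.7, 64.4 and 66.3 in RC1 to RC3 and 547, 561 and 534 in MC1 to MC3 (log2 fold change -3.06, SE 0.065, adjusted P = 3.92e-12). Htra1, a serine protease of cartilage, was higher in RC, at 1216, 1297 and 1295 in RC1 to RC3 and 354, 323 and 354 in MC1 to MC3 (log2 fold change 1.89, SE 0.065, adjusted P = 1.64e-10). Of the inhibitors of metalloproteinases, Timp3 was higher in MC, at 361, 386 and 335 in RC1 to RC3 and 1566, 1554 and 1409.9 in MC1 to MC3 (log2 fold change -2.07, SE 0.074, adjusted P = 2.29e-10), and Timp1 and Timp2 were not called (-0.32 and -0.75). Without the length correction Timp1 was 0.22 and Timp2 was called higher in MC (-1.17), as it was with scaling to the sum of the shared genes (-1.07). Serpine2, an inhibitor of plasminogen activators, was called higher in RC at 1.56 (adjusted P = 2.38e-10) but was 0.41 without the length correction.

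Growth factors, their binding proteins and imprinted growth genes, taken as 1 list, leaned to MC, with 19 of 46 called higher there and 8 higher in RC (17 and 7 on both scales). The shares called were 41.3% and 17.4%, against 19.1% and 18.8% of all genes. Igfbp5, which binds insulin-like growth factors in the matrix, had levels of 116, 118 and 104 in RC1 to RC3 and 2176, 2261 and 2091 in MC1 to MC3 (log2 fold change -4.27, SE 0.077, adjusted P = 1.47e-12). Wisp2 and Cyr61, of the CCN family of matrix signals, were higher in MC, Wisp2 with 141, 166 and 149.5 in RC1 to RC3 and 776, 759 and 772 in MC1 to MC3 (log2 fold change -2.34, SE 0.072, adjusted P = 6.84e-11) and Cyr61 at -1.61 (adjusted P = 9.65e-10), and -0.83 without the length correction. Their relative Ctgf was higher in RC, at 2490.3, 2534 and 2386 in RC1 to RC3 and 595, 558 and 565 in MC1 to MC3 (log2 fold change 2.11, SE 0.062, adjusted P = 4.43e-11). Mest, an imprinted gene of growth, was higher in MC, with 487, 477 and 453 in RC1 to RC3 and 1240.2, 1222 and 1244 in MC1 to MC3 (log2 fold change -1.39, SE 0.059, adjusted P = 8.52e-10), and the imprinted Peg3 higher in RC (1.05, adjusted P = 1.13e-06, and 0.94 without RC1, and 0.73 with scaling to the sum of the shared genes). Igf2, the fetal insulin-like growth factor, had levels of 508, 549 and 549.7 in RC1 to RC3 and 39.8, 40.3 and 45.6 in MC1 to MC3 (3.68, adjusted P = 3.68e-12), but 64.5 percent of its mouse exon bases overlap another gene. Igf2r, Grb10 and Plagl1 were not called (0.37, 0.45 and -0.18), and Igf2r was called without the length correction (1.09). Among the 12 largest differences stood Hgf, hepatocyte growth factor, which was near 0 in RC, with 0.0873, 0.0747 and 0.0614 in RC1 to RC3 and 19.9, 19.4 and 18.3 in MC1 to MC3 (log2 fold change -7.94, SE 0.17, adjusted P = 3.8e-12).

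The Wnt and hedgehog pathways, which steer cartilage growth and joint formation, had 17 of 34 genes called higher in MC and 5 higher in RC (15 and 5 on both scales), with a median of -1.62. The shares called were 50% and 14.7%, against 19.1% and 18.8% of all genes. Secreted modulators of Wnt were far apart. Dkk3 had levels of 2.21, 2.63 and 2.98 in RC1 to RC3 and 599.8, 617 and 632 in MC1 to MC3 (log2 fold change -7.89, SE 0.11, adjusted P = 3.71e-13). Rspo2, which strengthens Wnt signals, had levels of 0.3, 0.214 and 0.446 in RC1 to RC3 and 84.7, 97.01 and 92.2 in MC1 to MC3 (log2 fold change -8.16, SE 0.15, adjusted P = 1.75e-12). All RC libraries lay far below the MC libraries for both, as for Sfrp2 above. Fzd2, a Wnt receptor, was at 75.3, 93.4 and 93.4 in RC1 to RC3 and 255, 259.6 and 248 in MC1 to MC3 (log2 fold change -1.54, SE 0.086, adjusted P = 8.81e-09). Smo, the hedgehog signal transducer, had levels of 63.4, 70.2 and 69.4 in RC1 to RC3 and 223, 224 and 216 in MC1 to MC3 (log2 fold change -1.71, SE 0.065, adjusted P = 3.52e-10). Both were higher in every MC library. Frzb, a Wnt antagonist of articular cartilage, was higher in RC, with 79.6, 92.1 and 81.9 in RC1 to RC3 and 32.9, 34.5 and 34.9 in MC1 to MC3 (log2 fold change 1.31, SE 0.081, adjusted P = 2.26e-08), as was Lef1, a nuclear effector of Wnt, with 33.9, 38.03 and 34.1 in RC1 to RC3 and 1.31, 1.27 and 1.01 in MC1 to MC3 (log2 fold change 4.88, SE 0.13, adjusted P = 1.87e-11). With scaling to the sum of the shared genes Frzb fell just under the threshold (0.99). Ptch1, a receptor that hedgehog signals also induce, and Gli2 were not called (0.3 and 0.2).

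Of the 5 cell cycle genes that the study followed up as proteins, 1 was called between the untreated cells. Mcm2, a subunit of the helicase that opens DNA for replication, had levels of 94.2, 107 and 99.5 in RC1 to RC3 and 40.4, 36.1 and 35.6 in MC1 to MC3 and was called higher in RC on both scales (log2 fold change 1.42, SE 0.078, adjusted P = 7.93e-09). Mcm5, of the same helicase, was at 62.5, 72.9 and 72.7 in RC1 to RC3 and 50.4, 48.3 and 52.1 in MC1 to MC3 (log2 fold change 0.46, SE 0.08, adjusted P = 0.000195). Ccnd1, cyclin D1, had levels of 531, 565 and 558 in RC1 to RC3 and 302, 296 and 294 in MC1 to MC3 (log2 fold change 0.89, SE 0.057, adjusted P = 3.23e-08). In both, all RC libraries lay above all MC libraries, but neither was called. Ccnd1 passed the threshold without the length correction (1.42) and among genes with lengths nearly alike in the species (1.47). Pcna, the clamp of the replication fork, had overlapping groups at 182, 157 and 182 in RC1 to RC3 and 181, 178 and 166 in MC1 to MC3 (-0.01, adjusted P = 0.908). Lmnb1, lamin B1, was at 73.3, 71.4 and 70.1 in RC1 to RC3 and 80.6, 79.1 and 74.9 in MC1 to MC3 (-0.13, adjusted P = 0.107), and 0.21 without the length correction. Over all 5, the median was 0.46.

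Of 42 S phase genes tested, 13 were called higher in RC and 2 higher in MC (7 and 1 on both scales), with a median of 0.59. The shares called were 31.0% and 4.8%, against 18.8% and 19.1% of all genes. Prim1, the primase subunit, had levels of 111, 97.1 and 107 in RC1 to RC3 and 18.6, 15.8 and 15.3 in MC1 to MC3 (log2 fold change 2.66, SE 0.099, adjusted P = 2.85e-10). Rrm1, which makes deoxynucleotides, had levels of 136, 125 and 137 in RC1 to RC3 and 45.5, 48.2 and 46.8 in MC1 to MC3 (log2 fold change 1.5, SE 0.065, adjusted P = 1.06e-09) and was not called without the length correction (0.79). Hells, a chromatin remodeller of S phase, was near 0 in RC, with 0.183, 0.153 and 0.0955 in RC1 to RC3 and 11.3, 12.6 and 11.9 in MC1 to MC3 (log2 fold change -6.32, SE 0.18, adjusted P = 4.2e-11). Of 52 G2/M genes, 12 were called higher in RC and 3 higher in MC (4 and 3 on both scales), with a median of 0.18. When libraries were scaled to the sum of the shared genes, 6 and 5 were called, with a median of -0.15. Of all genes, 13.3% and 25.7% were called on that scale. With the TMM factor the shares called were 23.1% and 5.8%, against 18.8% and 19.1% of all genes. Cdk1, the kinase that starts mitosis, was at 199.9, 186 and 209.9 in RC1 to RC3 and 56.5, 56.7 and 52.9 in MC1 to MC3 (log2 fold change 1.84, SE 0.072, adjusted P = 4.54e-10), and 0.84 without the length correction. Hjurp and Cenpa, which build the centromere, were higher in MC (-1.67, adjusted P = 3.36e-10, and -1.93, adjusted P = 9.69e-10), and Mki67 and Top2a, markers of dividing cells named after their values were seen, had overlapping groups (-0.15 and 0.089), and Mki67 was 0.63 without the length correction.

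Cyclin-dependent kinases and their inhibitors included some wide gaps. Cdk6, a partner of D cyclins, had levels of 75.2, 68.9 and 66.3 in RC1 to RC3 and 5.91, 5.64 and 5.76 in MC1 to MC3 (log2 fold change 3.6, SE 0.09, adjusted P = 1.2e-11), although its rat model is 0.107 times as long as the mouse model and the log2 fold change was 1.18 without the length correction. Gadd45a, a stress gene, was higher in RC, at 414, 308 and 363 in RC1 to RC3 and 43.5, 40.9 and 42.6 in MC1 to MC3 (log2 fold change 3.09, SE 0.11, adjusted P = 1.92e-10), while its relative Gadd45g was higher in MC, at 19.9, 19.8 and 19.5 in RC1 to RC3 and 297, 269.7 and 265 in MC1 to MC3 (log2 fold change -3.81, SE 0.087, adjusted P = 6.78e-12). Cdkn2c, the inhibitor p18, was higher in MC (-2.3, adjusted P = 2.23e-09). Cdkn2b, the inhibitor p15, was called higher in MC at -1.98 (adjusted P = 3.44e-10), but its rat model is 4.06 times as long and the log2 fold change was 0.84 without the length correction. Cdk4 and Ccnd2 were not called (0.24 and 0.13), but without the length correction Cdk4 turned to -0.79 and Ccnd2 was called higher in MC (-1.79).

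Chondrocytes live with little oxygen and draw much of their energy from glycolysis. Of 30 glycolysis and hypoxia genes tested, 7 were called higher in RC and 4 higher in MC (4 each on both scales), with a median of 0.51. The shares called were 23.3% and 13.3%, against 18.8% and 19.1% of all genes. Gapdh had levels of 5612, 6506 and 6784 in RC1 to RC3 and 1223, 1266 and 1234 in MC1 to MC3 (log2 fold change 2.34, SE 0.078, adjusted P = 1.21e-10, and 1.1 without the length correction). Ldha, Aldoa and Pgk1, of the same pathway, were not called (0.77, 0.47 and 0.0066). Tpi1, the triosephosphate isomerase between them, had levels of 29.3, 35.1 and 32.8 in RC1 to RC3 and 724, 719 and 735 in MC1 to MC3 (log2 fold change -4.49, SE 0.081, adjusted P = 1.47e-12). The direction was thus opposite for 2 enzymes that follow each other in the pathway. Both genes have near-identical copies elsewhere in rodent genomes among which reads can be split, which makes their values uncertain. Car9, a carbonic anhydrase induced by low oxygen, was higher in RC, with 202, 233 and 215 in RC1 to RC3 and 31.1, 29.2 and 35.5 in MC1 to MC3 (log2 fold change 2.76, SE 0.092, adjusted P = 1.18e-10). Adm, adrenomedullin, which low oxygen also induces, was higher in MC, with 13.2, 12.2 and 12.1 in RC1 to RC3 and 183, 172 and 187 in MC1 to MC3 (log2 fold change -3.86, SE 0.089, adjusted P = 7.25e-12).

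The proteasome subunits, which form 1 complex in fixed proportions, give a view of how evenly a complex is measured. Of 30 tested, 10 were called higher in RC and 2 higher in MC, but 3 and 0 on both scales, with a median of 0.64. The shares called were 33.3% and 6.7%, against 18.8% and 19.1% of all genes. Scaled to the sum of the shared genes, 6 and 2 were called, against 13.3% and 25.7% of all genes on that scale. Psmb1 had levels of 403, 419 and 482 in RC1 to RC3 and 117, 112 and 112 in MC1 to MC3 (1.94, adjusted P = 5.59e-10, and 0.64 without the length correction). Psmb5, a catalytic subunit of the same type of ring, had 72.2, 84.3 and 86.3 in RC1 to RC3 and 199, 176 and 175 in MC1 to MC3 (-1.18, adjusted P = 2.59e-07, and -0.42). Psma4 was called higher in MC at -1.34 and was 0.18 without the length correction. Psmc3, a subunit of the cap, was called higher in RC on both scales (1.57, adjusted P = 5.42e-10). Log2 fold changes over the 30 subunits ran from -1.34 to 1.94.

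Among the 12 largest differences in each direction, with levels of at least 10 in one group, at least 10 counts in the other and lengths within 2 times, several had mouse exons shared with another gene. In RC these were Nme2 (9.07, overlap 48.9 percent), Nnt (8.49, 47.4 percent, with a second gene of the same name), Scamp4 (8.15, 80.5 percent), Tagln, Gng10 (7.34, 71.99 percent), Galnt2 (7.25, 90 percent), Abcb6 (7.1, 55.2 percent) and Gemin4 (6.55, 91.3 percent). Nnt, the nicotinamide nucleotide transhydrogenase of mitochondria, had levels of 145, 142 and 141 in RC1 to RC3 and 0.432, 0.271 and 0.473 in MC1 to MC3. Abcb4, a phospholipid transporter, and Clec2g, a lectin, had no exon overlap. Abcb4 had levels of 17.1, 14.4 and 15.5 in RC1 to RC3 and 0.0998, 0.127 and 0.0709 in MC1 to MC3 (log2 fold change 7.29, SE 0.18, adjusted P = 9.87e-12). Clec2g had levels of 169.7, 125 and 138 in RC1 to RC3 and 1.07, 0.167 and 0.623 in MC1 to MC3 (log2 fold change 7.84, SE 0.25, adjusted P = 7.76e-11). The remaining 2, mt-Nd3 and mt-Atp6, lie on the mitochondrial genome.

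On the side of MC, the highest overlap among the 12 was 7.74 percent. Besides Ogn, Aspn, Omd, Bst2, Ifit1, Rspo2, Hgf and Dkk3 they included C4b, Aldh18a1 and Adra1d. C4b, a complement component, had levels of 0.137, 0.147 and 0.092 in RC1 to RC3 and 73.9, 74.4 and 73.6 in MC1 to MC3 (log2 fold change -9.15, SE 0.13, adjusted P = 4.48e-13). Aldh18a1, the enzyme that starts the synthesis of proline, an amino acid of which collagen holds much, had 0.36, 0.643 and 0.704 in RC1 to RC3 and 189, 191 and 190.4 in MC1 to MC3 (log2 fold change -8.39, SE 0.13, adjusted P = 8.15e-13). Adra1d, an adrenergic receptor, had levels of 0.142, 0.0758 and 0.54 in RC1 to RC3 and 63.2, 57.3 and 63.6 in MC1 to MC3 (log2 fold change -7.94, SE 0.27, adjusted P = 1.35e-10). In each of these 3 genes every RC library was under 1 and every MC library at 57.3 or more.

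**Figure D5:**
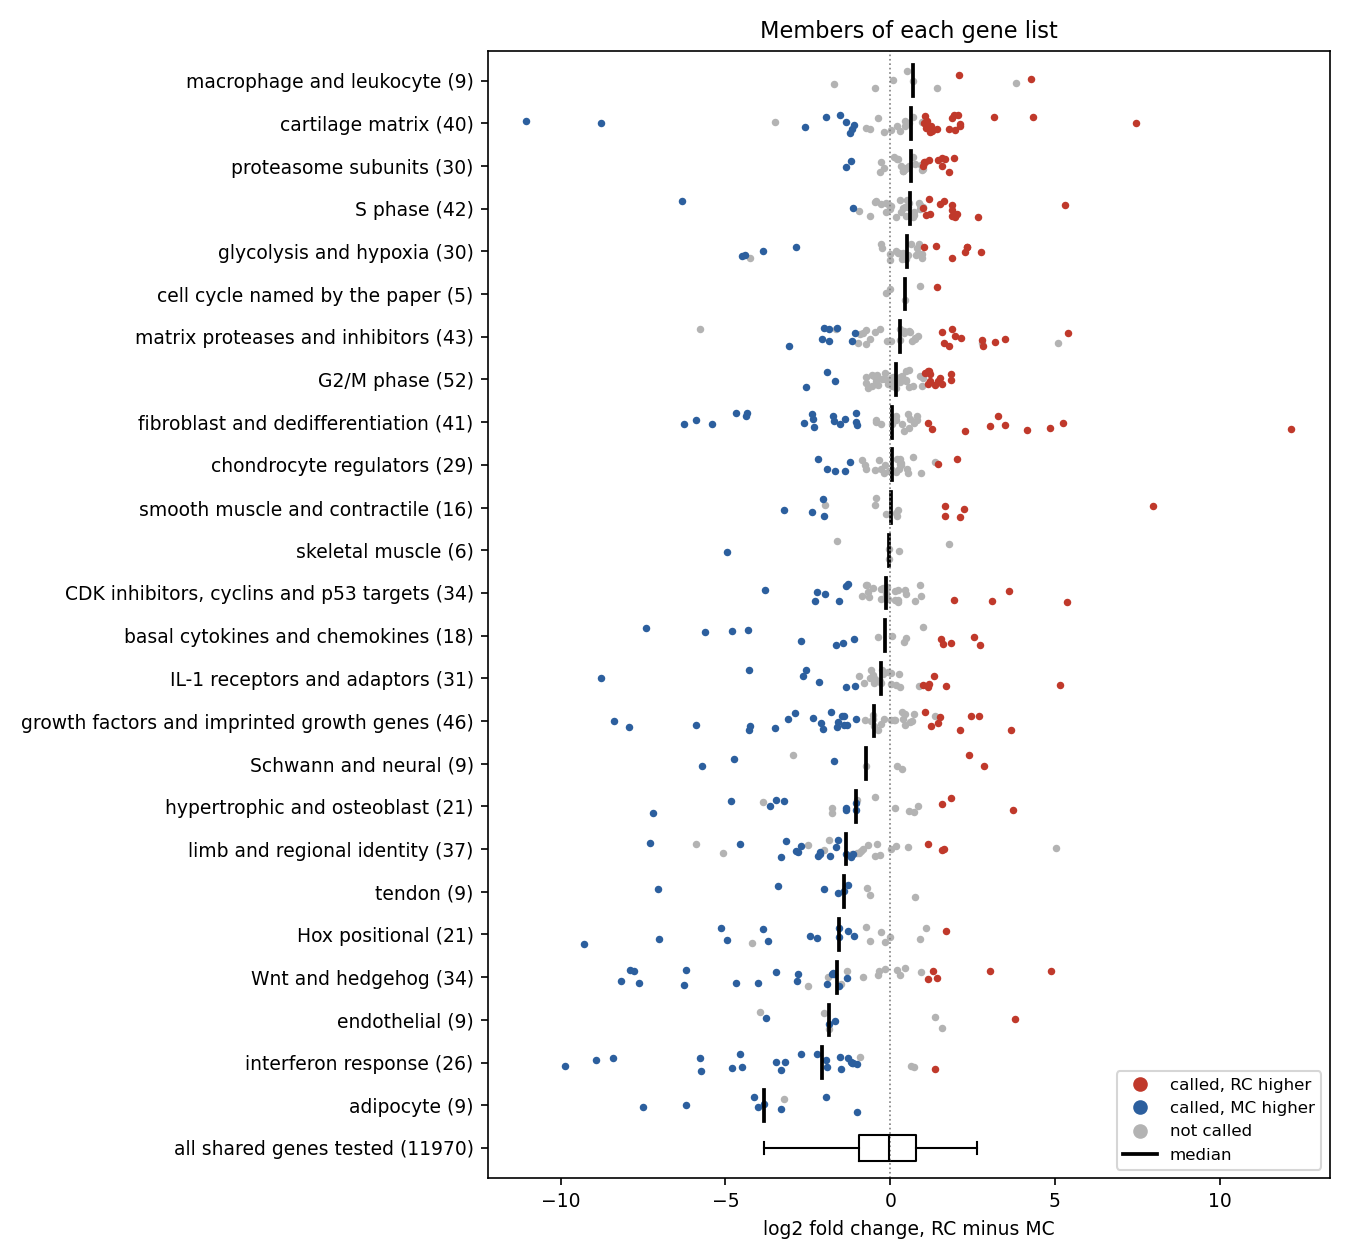
Log2 fold change (RC minus MC) of each tested member of 25 gene lists, with the number tested in brackets, coloured by call, and the median as a bar. The box at the foot shows all 11970 genes tested (median, quartiles, and 5th and 95th percentiles). List medians run from -3.83 (adipocyte) to 0.69 (macrophage and leukocyte), and every list with more than 10 members holds genes on both sides of 0.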

How the data were processed

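RNA of 12 chondrocyte libraries was sequenced by the study on an Illumina instrument from a kit that does not mark strand, and the 6 untreated libraries were used here. Reads were aligned with HISAT2 and counted with HTSeq 0.11.2 to Rnor_6.0 or GRCm38, according to the submitters' processing notes. The deposited tables, 1 per species, hold for each gene the raw counts and the FPKM values of each library. The gene lengths used here were worked out from these counts and FPKM values. With 1 length per gene and species, the authors' FPKM were returned within 0.1% for 100% of the values checked. Because the lengths came from the same values, this is no independent check of them. Columns of the authors' own comparisons were not used.

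Genes were matched by symbol without regard to case, and of duplicates the one with most counts was kept. Counts were tested with edgeR 4.0.16 (R 4.3.3): quasi-likelihood test, 2 groups of 3 libraries, offsets for gene length and TMM, the filterByExpr filter and Benjamini-Hochberg adjustment over 11970 genes. Alternatives used DESeq2 1.42.0 and limma 3.58.1 on log2(level + 1) or log2(level + 0.1), and limma was also used on the percentile ranks. The S and G2/M lists came from Seurat 5.3.0. Scripts were tested on simulated data. Total counts of 16841580 to 24897458 per library leave counting error small except for genes near 0.

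The members and lists were chosen with earlier results of these data known. Named genes were the 5 markers, genes the study followed as proteins or names for these data, the 12 largest differences in each direction (levels of at least 10 in a group, at least 10 counts in the other, no overlap, lengths within 2 times), up to 4 called members per list and direction by level and up to 6 uncalled members, and, where described, any Hox, Tbx4, Tbx5, Pitx1 or IL-1 pathway gene. Genes outside this rule are said to be named after their values were seen. Rat promoters are RefSeq sequences of GRCr8. Mouse coordinates and overlaps are of GENCODE M21 on GRCm38. Results for some genes are not reported here.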

Additional observations from a re-analysis of the deposited data

Results flagged for a closer look

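Abundant genes whose symbols the tables do not share lay outside the comparison. In the untreated rat libraries the mean FPKM was 4258.5 for Mt-cyb, 988 for AC095947.3 and 915 for LOC100361457. In the untreated mouse libraries it was 1870.4 for Rplp1, 1784 for mt-Cytb, 885 for Fth1, 833 for H19, 565 for Rps3a1 and 334 for Rps14. Mt-cyb and mt-Cytb are the names that the 2 tables give to the cytochrome b gene of mitochondria, and no fold was computed between them.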

How the results depend on the processing

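Symbols were matched by name, rat exon overlaps were not checked, and species, culture and annotation change together, so that no setting can separate them. Depth limits genes near 0 in a group.

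The counts of called genes (2253 higher in RC and 2288 higher in MC) moved by over 1.5 times under 4 settings. With rat and mouse lengths nearly alike (a ratio of at most 5 to 4, 3067 genes) they were 493 and 515, with a log2 threshold of 2 they were 801 and 1074, and with no fold threshold 4637 and 4481. Called both with and without the length correction were 1241 and 1669, the first of which is the fourth such move. Leaving out 1 library gave 2252 to 2315 and 2234 to 2300. DESeq2 called 2273 and 2258, and limma 2102 and 2156. With symbols that also match in case they were 2248 and 2277. The counts by rank (647 and 699) were 140 and 175 with such lengths, and 643 to 663 and 682 to 716 with 1 library left out. The replicate numbers do not pair the libraries (correlations of deviations -0.127, -0.024 and -0.100 for numbers 1 to 3), and with the replicate number as a block 2247 and 2301 genes were called and no gene named here changed its call.

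Members called in the lists also moved. Scaled to the sum of the shared genes, without the TMM factor, 11 cartilage matrix genes (18 with it), 6 proteasome subunits (10), 6 G2/M genes (12) and 0 sex-linked genes (1) were called higher in RC, and 8 chondrocyte regulators (5) higher in MC. Over all genes, 13.3% were called higher in RC and 25.7% higher in MC on that scale. Without the length correction, 11 chondrocyte regulators were called higher in MC, and 4 proteasome subunits, 0 sex-linked genes and 2 of the 5 cell cycle genes higher in RC. With such lengths, refitted counts among the members left are given as higher in RC and higher in MC. They were 1 and 1 of 5 chondrocyte regulators, 2 and 1 of 8 hypertrophic and osteoblast genes and 0 and 1 of 7 Hox genes. IL-1 genes had 1 and 1 of 8, and CDK genes 4 and 1 of 13. Proteasome subunits had 1 and 0 of 4, and the cell cycle genes 1 and 0 of 1. Macrophage genes had 2 and 0 of 5, glycolysis genes 2 and 2 of 6, and G2/M genes 2 and 0 of 14. Proteases had 4 and 2 of 12, and S phase genes 4 and 0 of 10.

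Of 198 genes named and tested, 4 changed direction where a call was involved, all without the length correction: Ccnd2 (-1.79), Cdkn2b (0.84), Hoxd11 (-1.29) and Psma4 (0.18). The cause was not tested beyond the lengths themselves. Calls of named genes changed for 27 of 198 without the length correction, for 16 with scaling to the sum of the shared genes, all in the same direction, for 7 of the 72 with lengths nearly alike and for 0 of 198 with DESeq2. With lengths nearly alike, Prelp and Ccnd1 gained a call higher in RC. Sox9, Pitx1, Nfkbia, Iars and Psmb5 lost a call higher in MC. Uncalled genes that turned from negative to positive there were Col1a1, Hoxd9, Hoxd10, Mki67, Mmp13, Myd88, Rela and Timp1.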

Other observations

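Mitochondrial genes differed from member to member although they are transcribed from 1 small genome. mt-Co1 (a subunit of cytochrome c oxidase) had mean levels of 18188 ± 2585 in RC and 12328 ± 195 in MC (SD, n = 3 each), a log2 fold change of 0.56, and mt-Nd1 and mt-Nd2, subunits of complex I, had 0.53 and 0.61. The genes mt-Co2, mt-Atp6, mt-Co3, mt-Nd3 and mt-Nd4l were far higher in RC, by 5.74 to 6.84 on the log2 scale, and mt-Atp8 had 3052 counts in RC against 1 in MC. mt-Co2 had levels of 13865 ± 2611 in RC and 249 ± 0.941 in MC, and mt-Co3, of the same enzyme, 14756 ± 2587 and 209.8 ± 12.8. These 6 genes stand in 1 unbroken run of protein-coding genes on the mitochondrial genome, together with neighbouring transfer RNA genes. mt-Nd4, which follows them, was higher in MC, with 121 ± 102 and 2184 ± 44.1 (-4.16), and mt-Nd5 and mt-Nd6 lay at -0.62 and -0.43. These genes were named after their values were seen.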
